A study of Mus musculus with 33 samples.

Results

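The comparison described here sets skin resident memory T cells (TRM) that had recently signalled through their T cell receptor (TCR) 1 day after allergen retest against TRM from mice of the same reporter before retest. It rests on 7 of the 33 libraries of the series, 4 of day 1 GFP+ TRM and 3 of day 0 TRM, and covers the 11588 genes with enough counts to test. The members were taken from the header of the count table of the first experiment, by a rule that uses no expression value. That header gives a code, the GFP state and a letter, but no day or treatment, so these were inferred from the sample titles. Code 1 was read as day 0 acetone because it alone has a letter C, as that group alone has among the GFP-negative titles. Codes 3 and 4 were read as day 1 because they alone have GFP-positive columns, which the titles give at day 1 alone. The study followed CD8+ TRM in a mouse model of allergic contact dermatitis to the hapten dinitrofluorobenzene (DNFB) and asked what the topical glucocorticosteroid TA does to them. RNA was measured by bulk CEL-seq2, a method that sequences barcoded 3′ ends.

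The day 1 GFP+ group held live CD45+CD8+CD69+CD103+Nur77GFP+ TRM sorted from the skin of DNFB allergic Nur77GFP mice 24 hours after retest, in 2 arms of 2 libraries. The arms had received TA or acetone, the vehicle. The header names the arms only by the codes 3 and 4 and does not say which is which, so they are called the code 3 arm and the code 4 arm, and the comparison gives both the same weight. The day 1 GFP- group, 4 libraries of the same arms and day without GFP, is used only to set beside the GFP+ cells. The day 0 group held 3 libraries of GFP- TRM from acetone-treated Nur77GFP mice, sorted by the same CD69 and CD103 gate just before retest. All groups thus shared the reporter, the allergy to DNFB, the tissue and the gate. GFP state and day change together between the GFP+ and the day 0 cells and cannot be told apart in that comparison. In the arm that received TA, treatment differs from day 0 as well and cannot be told apart from GFP state and day. That arm enters every fold change taken over both arms. Libraries are lettered A, B and C, and since nothing in the labels says that letters are separate animals or how many animals were pooled, the p-values measure the spread between these samples, which may be technical.

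When a TCR meets its antigen, calcium, kinase and diacylglycerol signals switch on transcription factors of the NFAT, AP-1 and NF-κB families within minutes to hours. Nr4a1, which encodes Nur77, is among the earliest genes to respond, and this is why GFP under its control marks cells with recent TCR signalling. TRM stay in the epidermis, held there by CD103 and CD69, and are known to answer antigen with chemokines, cytokines and cytotoxic granule proteins before they divide.

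Total counts ran from 2678738 to 8515297 in the GFP+ libraries and from 3488476 to 6982296 in the day 0 libraries, and mitochondrial transcripts took 22.4% to 30.1% and 24.9% to 31.6% of them. The code 4 arm was the shallower one, with 3262545 and 2678738 counts. Levels are given below in CPM, counts scaled to a common library size with TMM factors, for the code 3 libraries A and B and the code 4 libraries A and B in that order, and then for the day 0 libraries A, B and C. Where a mean and SD are given for GFP+ cells, the SD runs over the libraries of both arms. It thus includes any difference between the arms. In bulk RNA, fewer cells of a type and less RNA per cell cannot be told apart. T cell identity genes were present throughout, but not at equal levels. Cd8a had 643, 594, 937 and 1043 CPM in the GFP+ libraries, against 539, 467 and 441 CPM in the day 0 libraries. Of 21 tested genes of the TCR complex and CD8 identity, however, 6 were higher and 9 lower in GFP+ cells. Their sums were 11620 to 14430 CPM in GFP+ libraries and 14980 to 16840 CPM in day 0 libraries. Defining markers of other cells were also read: the 32 keratinocyte genes summed to 814 to 2795 CPM in GFP+ libraries and to 4151 to 4536 CPM in day 0 libraries, and the 28 phagocyte and dendritic cell genes to 376 to 1097 CPM and 314 to 456 CPM in the same order. The part of these cells in the results below was not tested, and their values are given again where they run with a result.

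Nr4a1 itself had 4993, 4199.7, 3863 and 3614 CPM in the GFP+ libraries, against 2050.4, 1431 and 1833 CPM in the day 0 libraries. Every GFP+ library stood above every day 0 library, which only describes cells sorted on the reporter of this gene. The difference was 1.23 ± 0.14 on the log2 scale (± SE), and the day 1 GFP- libraries had 879, 1151, 1342 and 1343 CPM. The gate genes moved the other way: Itgae, which encodes the CD103 chain, had 46.0, 58.0, 31.7 and 51.3 CPM in the GFP+ libraries, against 198, 204 and 130.4 CPM in the day 0 libraries, and Cd69 had 213, 204, 189.7 and 288 CPM in the GFP+ libraries, against 355, 336 and 378 CPM in the day 0 libraries. For both genes no GFP+ library reached a day 0 library, with log2 fold changes of -1.94 ± 0.20, adjusted p = 4.4e-07, for Itgae and -0.67 ± 0.14, adjusted p = 0.0012, for Cd69, although cells of both groups were sorted as positive for the proteins.

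Between day 1 GFP+ and day 0 TRM, edgeR's quasi-likelihood test called 2963 of the 11588 genes (25.6%) at an adjusted p below 0.05. In the GFP+ cells 1257 genes (10.8%) were higher and 1706 (14.7%) lower. The fold change is the mean of the changes of both arms, and its median over all tested genes was -0.18 on the log2 scale. Changes of more than 4-fold were found for 277 higher and 899 lower genes. Both counts include weakly expressed genes without a count in some libraries, and the size of such a change is uncertain. Several of the largest falls had 0 CPM in both code 4 libraries, the shallower ones. The 4 GFP+ libraries did not overlap the 3 day 0 libraries in CPM for 3612 genes (31.2%; 14% higher and 17.1% lower), among them 1114 of the 1257 higher and 1416 of the 1706 lower genes. Counts of list members below are to be read against the 10.8% higher and 14.7% lower of all genes, and list medians against -0.18.

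Most genes of secreted effector molecules rose. All 7 tested members of the chemokine list were called, 6 higher and 1 lower, with a median log2 fold change of 5.19. Xcl1, which draws cross-presenting dendritic cells (chr1:164931644-164935527, GRCm38), had 21337, 21509, 7824 and 7845 CPM in the GFP+ libraries, against 207, 166 and 236 CPM in the day 0 libraries. Every GFP+ library was far above every day 0 library, and within the GFP+ cells the code 3 libraries stood above the code 4 libraries. The log2 fold change was 6.00 ± 0.14, adjusted p = 2.2e-16. Ccl3, an inflammatory chemokine (chr11:83647844-83649355), had 21458, 22745, 3859 and 4016 CPM in the GFP+ libraries, against 256, 227 and 282 CPM in the day 0 libraries. Its close relative Ccl4 had 22975, 14629, 8586 and 11393 CPM in the GFP+ libraries, against 1349, 898 and 1005 CPM in the day 0 libraries. Both showed the same order of sets, with log2 fold changes of 5.19 ± 0.14, adjusted p = 8.9e-16, for Ccl3 and 3.66 ± 0.18, adjusted p = 1.3e-10, for Ccl4. Ccl1, the CCR8 ligand, had 5954, 7727, 2623 and 2625 CPM in the GFP+ libraries, against 99.7, 104 and 119 CPM in the day 0 libraries, a log2 fold change of 5.30 ± 0.14, adjusted p = 6.5e-16. Ccl5, which memory CD8 cells carry as a stored transcript, was the member that fell, to 105, 94.6, 79.7 and 94.4 CPM in the GFP+ libraries, against 143, 146 and 171 CPM in the day 0 libraries (-0.72 ± 0.19, adjusted p = 0.0078). The groups did not overlap for any of these 5 chemokines.

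Of 21 tested cytokine genes 14 rose and 2 fell (median log2 fold change 2.41). Il3, the growth factor of basophils and mast cells (chr11:54265303-54267277), had 5642, 6346, 185 and 202 CPM in the GFP+ libraries, against 16.4, 21.3 and 17.0 CPM in the day 0 libraries. The code 4 libraries held far less of it than the code 3 libraries, with day 0 lower still, and the log2 fold change over both arms was 5.88 ± 0.20, adjusted p = 4.7e-14. Il10, an anti-inflammatory cytokine (chr1:131019845-131024974), had 727, 616, 64.3 and 24.8 CPM in the GFP+ libraries, against 1.76, 1.26 and 2.00 CPM in the day 0 libraries (6.72 ± 0.46, adjusted p = 5e-09). Il2, the T cell growth factor (chr3:37120523-37125959), had 398, 376, 14.4 and 22.8 CPM in the GFP+ libraries, against 2.47, 2.80 and 2.00 CPM in the day 0 libraries (5.09 ± 0.37, adjusted p = 3.7e-09). In both genes the lowest GFP+ library was a code 4 library and still lay above the highest day 0 library. Ifng, the type 1 cytokine that activates macrophages and keratinocytes, had 12924, 12191, 1301 and 1371 CPM in the GFP+ libraries, against 749, 666 and 905 CPM in the day 0 libraries. Here too no library overlapped, but most of the log2 fold change of 2.41 ± 0.13, adjusted p = 4e-11, came from the code 3 arm. Areg, an epithelial growth factor, had 552, 552, 187 and 199 CPM in the GFP+ libraries, against 36.8, 48.0 and 39.7 CPM in the day 0 libraries (2.97 ± 0.19, adjusted p = 4.7e-10). The 2 members that fell were Csf1 at 220 ± 28.5 CPM in GFP+ cells and 328 ± 38.4 CPM in day 0 cells (SD, n = 4 and 3) and Tnfsf10, which encodes TRAIL, at 18.6 ± 8.27 CPM in GFP+ cells and 32.9 ± 11.9 CPM in day 0 cells, and Tnfsf10 libraries overlapped and its call was lost under 8 of 13 settings.

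Cytotoxic granule genes split, 9 of 16 higher and 4 lower (median 1.01). Gzmb, the caspase-cleaving protease granzyme B (chr14:56258838-56262260), had 52494, 53251, 9022 and 8823 CPM in the GFP+ libraries, against 907, 848 and 975 CPM in the day 0 libraries (4.58 ± 0.12, adjusted p = 8.9e-16). Every GFP+ library stood far above day 0, the code 3 libraries highest. Srgn, the proteoglycan that packs granules, had 20978, 17128, 22355 and 24059.6 CPM in the GFP+ libraries, against 6064, 6384 and 6279 CPM in the day 0 libraries (1.75 ± 0.08, adjusted p = 2.9e-12), with all 4 GFP+ libraries close together. Gzmf averaged 133 ± 50.4 CPM in GFP+ cells and 17.4 ± 2.85 CPM in day 0 cells and Serpinb6b, a granule protease inhibitor, 473 ± 62.8 CPM in GFP+ cells and 45.1 ± 10.8 CPM in day 0 cells (SD, n = 4 and 3). Both rose, by 2.86 ± 0.23 and 3.39 ± 0.24 on the log2 scale, and both belong to families of similar genes among which reads could be split. Ctsw, the papain-like protease cathepsin W, fell to 211, 201, 188 and 201 CPM in the GFP+ libraries, against 703, 609 and 675 CPM in the day 0 libraries (-1.73 ± 0.10, adjusted p = 2.1e-10). Lamp1, a marker of granule membranes, and Unc13d, which primes granules for release, also fell, by 0.86 and 1.88 on the log2 scale. Nkg7 fell by 0.40, with the code 3 libraries among or above those of day 0.

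**Figure D1:**
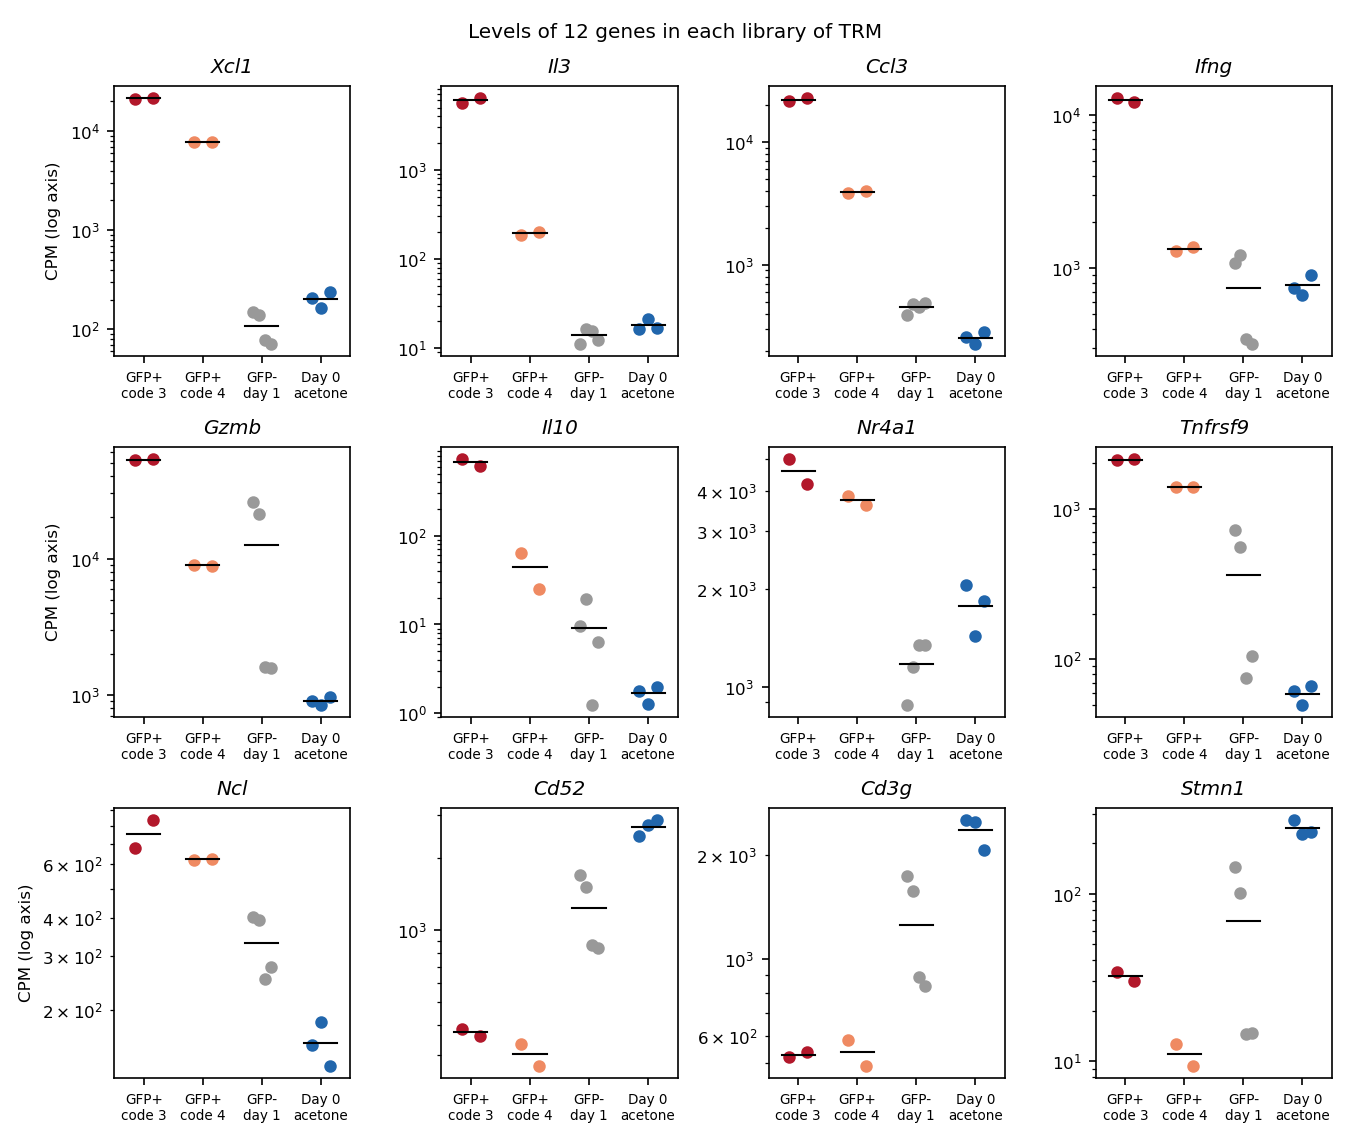
Level of 12 genes in each library, in CPM on a log axis, for day 1 GFP+ TRM of the code 3 and the code 4 arm, day 1 GFP- TRM (2 code 3 libraries on the left, 2 code 4 libraries on the right) and day 0 acetone TRM. Points are libraries and lines are means of a set. Xcl1, Il3, Ccl3, Ifng, Gzmb, Il10, Nr4a1, Tnfrsf9 and Ncl lie higher in all 4 GFP+ libraries than in the 3 day 0 libraries, and Cd52, Cd3g and Stmn1 lie lower.

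The 200 bases before the start site of 6 of these genes are shown because they are the DNA next to large rises. They are the named genes with the largest log2 fold change at a mean of 100 CPM or more in GFP+ cells that have a single promoter in the RefSeq table (GRCm38.p6, 8674 of the 11588 tested genes matched by symbol), a level and a choice set after the values were seen. All lie on the minus strand and are written 5′ to 3′ along the gene. Capitals mark letters of the core motifs of NFAT (TTTCC), AP-1 (TGANTCA) and NF-κB (GGG and CC with 5 bases of any kind between them), searched on both strands and allowed to overlap each other.
Xcl1 chr1:164935523-164935722: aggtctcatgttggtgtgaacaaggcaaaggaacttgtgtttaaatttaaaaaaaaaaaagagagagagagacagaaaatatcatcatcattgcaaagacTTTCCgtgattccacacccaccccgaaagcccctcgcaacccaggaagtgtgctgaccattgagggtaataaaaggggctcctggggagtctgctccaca
Il3 chr11:54267280-54267479: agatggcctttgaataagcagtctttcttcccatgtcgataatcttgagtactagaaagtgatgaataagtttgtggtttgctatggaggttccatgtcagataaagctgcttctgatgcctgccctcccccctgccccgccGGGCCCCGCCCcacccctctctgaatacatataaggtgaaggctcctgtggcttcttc
Ccl1 chr11:82179813-82180012: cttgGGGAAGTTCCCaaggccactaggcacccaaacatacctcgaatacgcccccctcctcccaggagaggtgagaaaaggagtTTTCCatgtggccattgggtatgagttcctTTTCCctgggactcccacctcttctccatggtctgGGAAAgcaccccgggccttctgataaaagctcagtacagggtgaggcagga
Ccl3 chr11:83649379-83649578: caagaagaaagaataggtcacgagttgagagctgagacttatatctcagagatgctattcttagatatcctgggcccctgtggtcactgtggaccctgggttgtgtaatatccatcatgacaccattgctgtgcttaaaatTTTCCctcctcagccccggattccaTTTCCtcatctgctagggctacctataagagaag
Il2 chr3:37125955-37126154: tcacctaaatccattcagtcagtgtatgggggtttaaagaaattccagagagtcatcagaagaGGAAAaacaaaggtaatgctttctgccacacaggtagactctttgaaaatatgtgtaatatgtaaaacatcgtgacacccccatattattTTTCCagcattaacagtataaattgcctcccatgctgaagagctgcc
Gzmb chr14:56262335-56262534: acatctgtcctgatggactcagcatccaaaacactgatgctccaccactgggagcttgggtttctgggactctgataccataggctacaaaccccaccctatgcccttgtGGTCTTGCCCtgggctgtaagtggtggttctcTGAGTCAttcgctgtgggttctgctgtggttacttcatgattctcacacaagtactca
The NFAT core was found in 4 of these 6 windows, in 46.1% of the 8674 promoters of tested genes and in 47.6% of all 32851 promoters of the table over the same length. The NF-κB motif was found in 3 of the 6, in 57.5% of those of tested genes and in 41.4% of all. The AP-1 motif was found in 1 of the 6, in 3.6% of those of tested genes and in 5.48% of all. Il2 held the NFAT core 47 and 137 bases upstream of the start, counted to the base of the motif farthest from it, and Ccl1 held it 3 times. Such short motifs occur in much of the genome, and a match is a description of letters only.

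Transcription factors that act downstream of the TCR rose together in part. Of the 7 Nr4a and Egr genes 5 rose (median 1.34), among them Nr4a1, which the sort sets, and none fell in edgeR or DESeq2 or at an unadjusted p under 0.05. Nr4a2, a sister of Nr4a1, had 299, 364, 148 and 205 CPM in the GFP+ libraries, against 62.7, 92.4 and 73.8 CPM in the day 0 libraries (1.66 ± 0.19, adjusted p = 1.8e-06). Egr2, which restrains activated T cells, averaged 65.2 ± 21.4 CPM in GFP+ cells and 22.1 ± 8.10 CPM in day 0 cells and Egr1, an immediate early factor, 196 ± 61.1 CPM in GFP+ cells and 75.2 ± 3.14 CPM in day 0 cells (SD, n = 4 and 3). Neither overlapped between the groups, with log2 fold changes of 1.55 ± 0.39 for Egr2 and 1.34 ± 0.24 for Egr1.

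Among 13 AP-1 genes and partners 7 rose and 2 fell (median 0.80), and 4 rose without day 0 C or under the replicate block. Irf8, which drives effector differentiation of CD8 T cells and is also expressed by dendritic cells, had 299, 219, 78.7 and 93.6 CPM in the GFP+ libraries, against 2.47, 3.93 and 6.98 CPM in the day 0 libraries (5.10 ± 0.59, adjusted p = 8.9e-06). Irf4, which scales with TCR signal strength, had 61.2, 83.8, 33.3 and 27.3 CPM in the GFP+ libraries, against 2.29, 4.77 and 4.99 CPM in the day 0 libraries (3.54 ± 0.55, adjusted p = 7.2e-05). Both were low in every day 0 library and far higher in every GFP+ library. Maff, a small Maf protein, and Junb averaged 309 ± 177 CPM in GFP+ cells and 77.5 ± 38.4 CPM in day 0 cells and 3128 ± 639.9 CPM in GFP+ cells and 1778 ± 319.6 CPM in day 0 cells, rises of 1.80 ± 0.26 and 0.80 ± 0.15. The 2 that fell were Fosb and Fos, both immediate early genes that also respond to cell isolation. Fosb had 209, 219.7, 189 and 175 CPM in the GFP+ libraries, against 619.5, 518 and 540.2 CPM in the day 0 libraries (-1.50 ± 0.12, adjusted p = 1.7e-08), and Fos differed by -0.40 ± 0.12, adjusted p = 0.016, a call lost under 5 of 13 settings.

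The NFAT and NF-κB list counted 11 of 17 higher and 1 lower (median 1.05). Nfkb1, the p105/p50 subunit, had 974, 943, 451 and 367 CPM in the GFP+ libraries, against 107, 89.6 and 101 CPM in the day 0 libraries (2.66 ± 0.20, adjusted p = 7.2e-09), and Nfkb2, the p100/p52 subunit, had 341, 417, 392 and 387 CPM in the GFP+ libraries, against 94.7, 77.1 and 87.3 CPM in the day 0 libraries (2.15 ± 0.17, adjusted p = 1.1e-08). Members of the IκB family rose as well, Nfkbib by 2.60 ± 0.23 and Nfkbid by 1.79 ± 0.15. Nfatc2 was the gene that fell, at 11.4 ± 4.71 CPM in GFP+ cells and 27.2 ± 12.9 CPM in day 0 cells (SD, n = 4 and 3; -1.26 ± 0.41, adjusted p = 0.029), and its call was lost without day 0 A, code 3 A, code 3 B or code 4 B. Outside these lists, 3 other factors stood among the largest rises. Pou2f2, which encodes Oct-2, had 70.0, 67.8, 15.7 and 5.70 CPM in the GFP+ libraries, against 0, 0.140 and 0 CPM in the day 0 libraries, which is 945 counts in GFP+ and 1 count in day 0 cells, a ratio of 869-fold (95% interval 156 to 34347). Zbtb32, a repressor of cytokine genes, had 334 counts and 2 counts, a ratio of 154-fold (95% interval 42.2 to 1273), and Hivep3 averaged 50.9 ± 42.2 CPM in GFP+ cells and 0.317 ± 0.355 CPM in day 0 cells. These ratios are of counts summed over each group, so the deeper code 3 libraries weigh more. With equal weight per arm, the log2 fold changes were 8.36 ± 1.01 for Pou2f2 and 6.47 ± 1.06 for Zbtb32. The intervals cover counting error only.

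Brakes on signalling rose for 9 of 21 genes and fell for 2 (median 1.07). Dusp2, a nuclear phosphatase of ERK, had 596, 580.2, 710.5 and 639 CPM in the GFP+ libraries, against 50.01, 56.2 and 55.4 CPM in the day 0 libraries (3.55 ± 0.20, adjusted p = 7.8e-11), with changes of 3.45 in the code 3 arm and 3.65 in the code 4 arm. Sh2d2a, Ptpn22 and Cish, an adaptor, a phosphatase and a cytokine signalling inhibitor, rose by 1.85 ± 0.15, 1.50 ± 0.12 and 1.46 ± 0.16. Dusp1 and Ptpn6, which encodes SHP-1, fell by 0.62 and 0.74 on the log2 scale.

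Costimulatory receptors rose for 6 of 11 genes (median 0.91). None fell in edgeR, with 1 lower at an unadjusted p under 0.05, and 1 fell in DESeq2, with another scaling, without the low-count filter, and without day 0 A or C. Tnfrsf9, which encodes 4-1BB and is widely used as a marker of recent antigen contact, had 2116, 2132, 1395 and 1387 CPM in the GFP+ libraries, against 61.1, 49.6 and 66.6 CPM in the day 0 libraries (4.86 ± 0.19, adjusted p = 2.1e-13). Tnfrsf4, which encodes OX40, and Crtam, a receptor of activated cytotoxic cells, averaged 103 ± 53.0 CPM in GFP+ cells and 8.47 ± 7.01 CPM in day 0 cells and 332 ± 175 CPM in GFP+ cells and 32.5 ± 20.3 CPM in day 0 cells (SD, n = 4 and 3). The groups overlapped for neither, and they rose by 3.49 ± 0.42 and 3.20 ± 0.34. Inhibitory receptors were divided, with 5 of 15 higher and 3 lower (median -0.09). Cd160 had 114, 129.6, 114 and 139 CPM in the GFP+ libraries, against 9.33, 6.03 and 0.998 CPM in the day 0 libraries (4.46 ± 0.58, adjusted p = 1.6e-05), and Havcr2, which encodes TIM-3, had 523, 414, 577 and 597 CPM in the GFP+ libraries, against 91.9, 105 and 135 CPM in the day 0 libraries (2.24 ± 0.19, adjusted p = 4.3e-08). Ctla4 averaged 30.5 ± 11.8 CPM in GFP+ cells and 0.900 ± 1.17 CPM in day 0 cells (5.16 ± 0.65), and Pdcd1, which encodes PD-1, 181 ± 83.0 CPM in GFP+ cells and 43.0 ± 6.59 CPM in day 0 cells (1.95 ± 0.23). Cd96, Nt5e and Lair1 fell by 1.76, 2.04 and 3.19 on the log2 scale.

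Of 25 cytokine receptors 8 rose and 1 fell (median 0.35). All 3 chains of the IL-2 receptor were among those that rose. Il2ra, the high-affinity chain, had 333, 331, 245 and 213 CPM in the GFP+ libraries, against 36.1, 14.6 and 9.98 CPM in the day 0 libraries (3.76 ± 0.37, adjusted p = 8.7e-07). Il2rb and Il2rg, the signalling chains shared with IL-15, rose less, by 1.19 ± 0.18 and 0.76 ± 0.10. Il7r, the receptor of the survival cytokine IL-7, averaged 117 ± 16.5 CPM in GFP+ cells and 25.6 ± 8.23 CPM in day 0 cells (SD, n = 4 and 3; 2.18 ± 0.29, adjusted p = 1.1e-05). Of 20 genes of the Bcl2 family and death list 7 rose and 1 fell (median 0.50), and 4 rose without day 0 B. Bcl2, Mcl1 and Traf1 rose by 1.27 ± 0.21, 1.07 ± 0.17 and 1.91 ± 0.27, and Bad, which promotes death, fell by 1.76.

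The machinery that makes ribosomes rose almost throughout. Of 48 ribosome biogenesis and nucleolar genes 40 rose and none fell, with a median log2 fold change of 1.77. Ncl, nucleolin, had 677, 836, 622 and 626 CPM in the GFP+ libraries, against 154, 183 and 131 CPM in the day 0 libraries (2.14 ± 0.14, adjusted p = 6.5e-10). Gnl3, Nop56 and Npm1, which process ribosomal RNA or assemble subunits, rose by 2.94 ± 0.22, 1.82 ± 0.15 and 1.58 ± 0.10. Summed over the list, GFP+ libraries held 6484, 6817, 6011 and 6241 CPM and day 0 libraries 1913, 2020 and 1909 CPM, so that the arms lay close together. Of 25 translation factors 20 rose and none fell (median 1.09). Eif5a, which helps ribosomes through difficult codons, had 5048, 4899, 4749.9 and 5233 CPM in the GFP+ libraries, against 1531, 1296 and 1169 CPM in the day 0 libraries (1.90 ± 0.09, adjusted p = 1.4e-11), and Eif4e, the cap-binding protein, rose by 2.09 ± 0.18. Of the proteins of the ribosome itself, 28 of 78 rose and 1 fell, with a median of 0.21, and Rps27a, a ribosomal protein fused to ubiquitin, rose by 0.59 ± 0.09. The count of 28 was 10 to 29 over the other settings tried, with 18 without day 0 B, 10 without day 0 C and 13 without code 3 B. In the ribosome biogenesis and translation factor lists no gene fell in edgeR or DESeq2 or was lower at an unadjusted p under 0.05.

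Protein folding and amino acid supply rose as well. Among 24 heat shock chaperones 16 rose and 2 fell (median 0.92), and among 19 genes of the unfolded protein and integrated stress response 9 rose and none fell in edgeR or DESeq2 or at an unadjusted p under 0.05 (median 0.94). Hspa5, the chaperone BiP of the endoplasmic reticulum, had 1023, 1105, 454 and 499 CPM in the GFP+ libraries, against 119, 158 and 131 CPM in the day 0 libraries (2.39 ± 0.15, adjusted p = 4.7e-10). Hsp90ab1, a cytosolic chaperone, averaged 2869.5 ± 323 CPM in GFP+ cells and 1256 ± 99.1 CPM in day 0 cells (SD, n = 4 and 3; 1.19 ± 0.09), and Xbp1, a driver of that response, 246 ± 31.0 CPM in GFP+ cells and 94.3 ± 7.84 CPM in day 0 cells (1.38 ± 0.20). Hspb1 and Dnaja1 were the 2 that fell. Hspb1 differed by -1.10 ± 0.23, adjusted p = 0.0013, and the call of Dnaja1 was lost under 10 of 13 other settings. Serine synthesis and amino acid transport counted 12 of 21 higher and 3 lower (median 1.53). Slc1a5, a glutamine carrier, had 363, 291, 344 and 400.3 CPM in the GFP+ libraries, against 122, 94.4 and 102 CPM in the day 0 libraries (1.72 ± 0.18, adjusted p = 4.3e-07), and Slc3a2, the heavy chain of large amino acid carriers, rose by 1.31 ± 0.13. Odc1, which starts polyamine synthesis, rose by 1.53 ± 0.17, and Got1, an aspartate transaminase, by 1.88 ± 0.21. The 3 that fell were Psat1 and Psph, which make serine, and the carrier Slc38a2, by 1.34, 2.08 and 0.56.

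The calls of energy metabolism genes showed no common direction. Glycolysis genes were higher for 5 of 25 and lower for 5 (median -0.05). In the code 3 arm 7 were higher and 2 lower, and in the code 4 arm 5 were higher and 6 lower. Summed over the list, GFP+ libraries held 4342, 4708, 3832 and 3673 CPM and day 0 libraries 2871, 2901 and 2688 CPM, so that the sum was higher in every GFP+ library. Pgk1, a glycolytic kinase, had 729, 815, 533 and 637 CPM in the GFP+ libraries, against 280, 243 and 252 CPM in the day 0 libraries (1.38 ± 0.12, adjusted p = 3.9e-08), and the lactate enzyme Ldha and the lactate carrier Slc16a1 rose by 0.87 ± 0.14 and 2.06 ± 0.39. Gpi1 fell by 0.74 and Pdk1, which holds pyruvate back from mitochondria, by 2.60. Of 73 nuclear genes of the respiratory chain 9 rose and 15 fell (median -0.10), with Cycs, cytochrome c, up by 1.35 ± 0.14 and Ndufv3 down by 1.39. The count of 9 was 4 without code 3 B. None of the 13 mitochondrially encoded genes passed the test in edgeR, with 3 at an unadjusted p under 0.05, and none passed in DESeq2. In edgeR 2 of them were called higher without the low-count filter and 2 without day 0 B.

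Cholesterol synthesis and uptake counted 1 of 24 higher and 5 lower (median -0.88). Fdps, a mevalonate pathway enzyme, had 16.5, 22.4, 5.55 and 5.70 CPM in the GFP+ libraries, against 26.2, 40.1 and 32.4 CPM in the day 0 libraries (-1.65 ± 0.31, adjusted p = 0.00048), with the code 4 libraries the lowest.

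**Figure D2:**
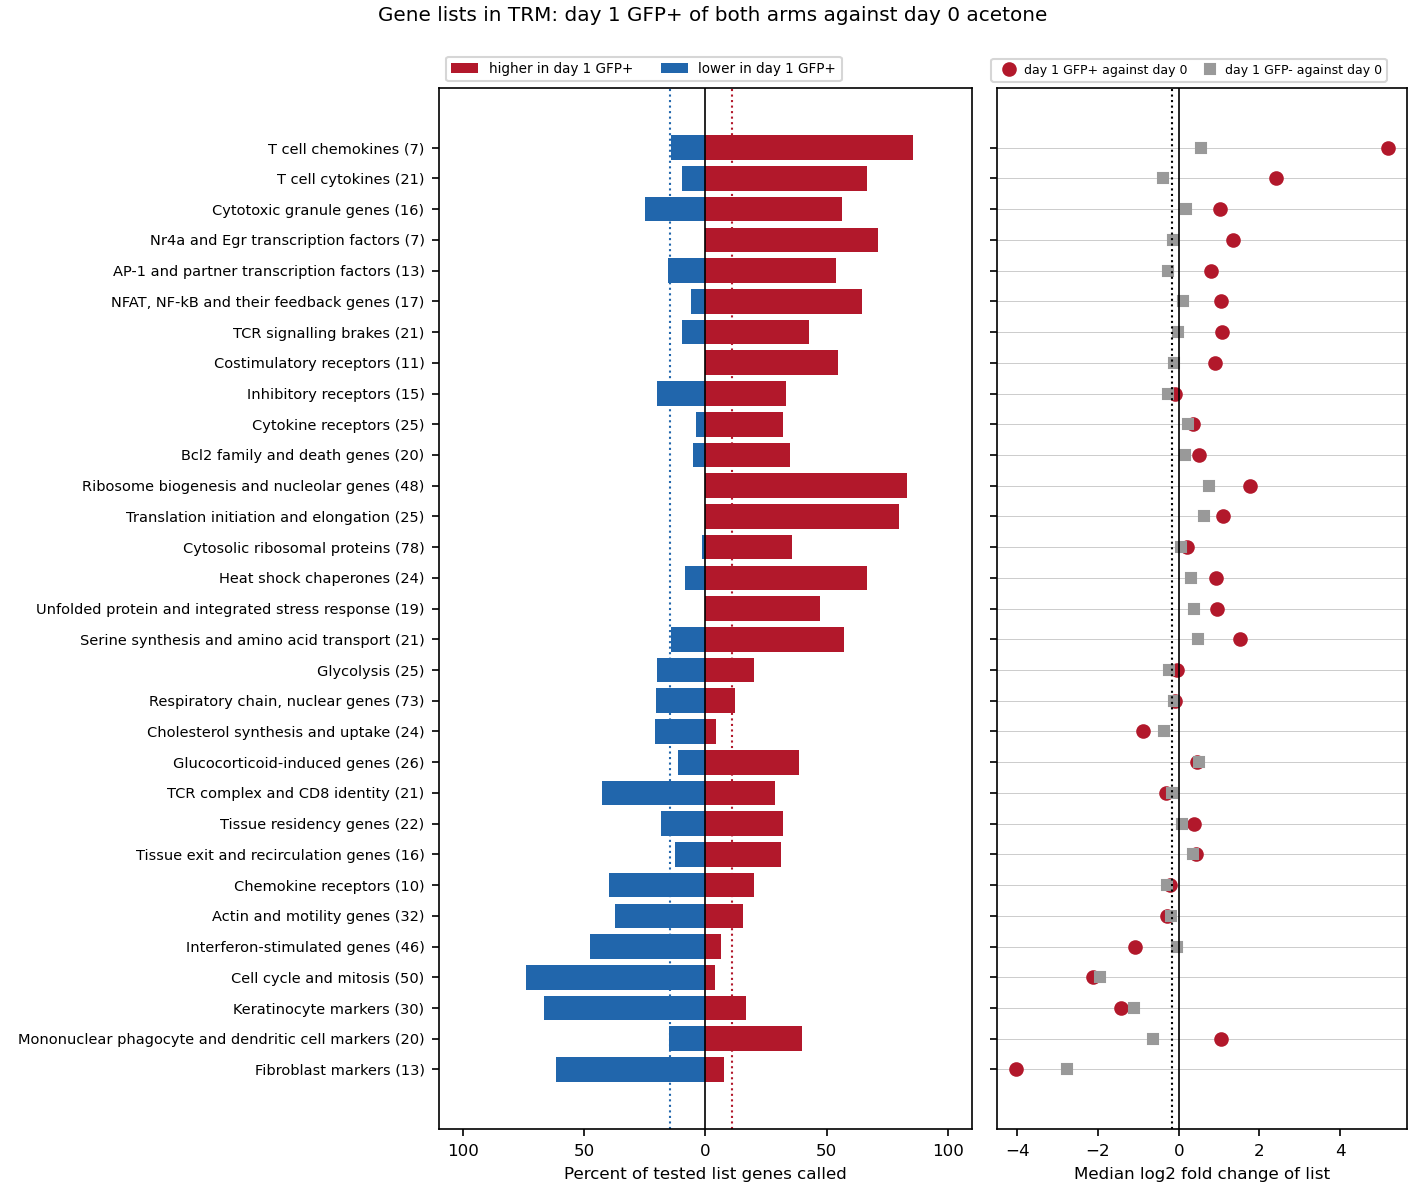
Gene lists in the comparison of day 1 GFP+ TRM of both arms against day 0 acetone TRM, with the number of tested genes in brackets. Bars on the left give the percent of tested genes called higher (red) or lower (blue), with dotted lines at 10.8% and 14.7% for all genes. Points on the right give each list's median log2 fold change for GFP+ cells (circles) and for day 1 GFP- cells (squares) against the same day 0 libraries, with a dotted line at -0.18 for all genes in GFP+ cells. Of the 31 lists drawn, chemokines, cytokines and ribosome biogenesis lie farthest right for GFP+ cells, and cell cycle genes lie left for both.

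Cell cycle genes held more members that fell than any of the other 38 lists. Of 50 tested, 37 were lower and 2 higher in GFP+ cells, with a median of -2.13. Stmn1, a tubulin regulator of dividing cells, had 34.0, 30.2, 12.7 and 9.36 CPM in the GFP+ libraries, against 274, 227 and 234 CPM in the day 0 libraries (-3.69 ± 0.16, adjusted p = 2e-12). Tubb5, a tubulin, had 393, 355, 150.2 and 246 CPM in the GFP+ libraries, against 1690.1, 1524 and 1485 CPM in the day 0 libraries (-2.53 ± 0.13, adjusted p = 1.9e-11). Ube2c, which targets mitotic cyclins, had 12.3, 7.27, 3.92 and 0.407 CPM in the GFP+ libraries, against 93.3, 72.8 and 64.1 CPM in the day 0 libraries (-4.00 ± 0.30, adjusted p = 7.2e-09). In each of the 3 genes all GFP+ libraries lay below all day 0 libraries, and the code 4 libraries were the lowest. The 2 members that rose were Ran, the transport GTPase, by 1.21 ± 0.14, and Ccnd2, cyclin D2, by 0.60 ± 0.13. Ccnd2 had 1067, 1081, 333 and 266 CPM in the GFP+ libraries, against 350.4, 395 and 378 CPM in the day 0 libraries, so that it was above day 0 in the code 3 arm and below it in the code 4 arm. The keratinocyte sums given above were also lower in all GFP+ libraries. Fibroblast genes were lower for 8 of 13 and higher for 1 (median -4.04). Thy1, which T cells also express, was among those that fell, by 0.36. The list sums were 2896 to 5171 CPM in GFP+ libraries and 4512 to 5038 CPM in day 0 libraries. They include Thy1 and so do not measure fibroblast RNA alone. The count of 8 was 4 under the replicate block and without day 0 B, day 0 C or code 3 B, and 5 without code 3 A, code 4 A or code 4 B. The part of either in the fall of cell cycle genes was not tested.

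Interferon-stimulated genes were lower for 22 of 46 and higher for 3 (median -1.08). Against the same day 0 libraries, 8 were lower and 6 higher in the code 3 arm, and 19 were lower and 0 higher in the code 4 arm. The higher count of 3 was 1 under the replicate block and without day 0 B, day 0 C or code 3 B. Ly6e had 702, 750.4, 1067 and 1033 CPM in the GFP+ libraries, against 1824, 2016 and 1888 CPM in the day 0 libraries (-1.13 ± 0.09, adjusted p = 1.3e-08), and the immunoproteasome genes Psmb8 and Psmb9 fell by 1.51 and 2.46. All 3 of these genes lay below day 0 in every GFP+ library. The guanylate-binding protein gene Gbp2 went apart from them, with 376, 617, 28.1 and 33.4 CPM in the GFP+ libraries, against 38.2, 35.9 and 61.1 CPM in the day 0 libraries, high in the code 3 arm and slightly below day 0 in the code 4 arm. Its call as higher over both arms (1.46 ± 0.23, adjusted p = 8.6e-05) therefore rests on the code 3 libraries. Ifit1 and Ly6a were the other 2 called higher, and they lost the call under 5 and 8 of 13 other settings.

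Actin and motility genes were lower for 12 of 32 and higher for 5 (median -0.28), and 3 and 2 were higher without day 0 B and day 0 C. Tmsb4x, which binds actin monomers, had 2211, 2454, 1629 and 1675 CPM in the GFP+ libraries, against 6136, 6857 and 6585 CPM in the day 0 libraries (-1.73 ± 0.08, adjusted p = 3.6e-12). Coro1a, an actin regulator of leukocytes, had 92.1, 79.2, 101 and 105 CPM in the GFP+ libraries, against 307, 318 and 322 CPM in the day 0 libraries (-1.75 ± 0.12, adjusted p = 1.7e-09), and Vim, vimentin, fell by 1.42. Cd52, a small surface glycoprotein of lymphocytes, had 387, 361, 335 and 271 CPM in the GFP+ libraries, against 2457, 2741 and 2864 CPM in the day 0 libraries (-3.00 ± 0.10, adjusted p = 1.4e-14), all GFP+ libraries far below day 0 and close to each other. Actg1, a cytoplasmic actin, and Tpm3, a tropomyosin, were called higher, but their code 4 libraries lay among or near those of day 0.

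The TCR complex and CD8 identity list was mixed, with 9 of 21 lower and 6 higher (median -0.31). Cd3g had 519.9, 540.4, 584 and 491 CPM in the GFP+ libraries, against 2522, 2495 and 2069 CPM in the day 0 libraries (-2.15 ± 0.11, adjusted p = 1.9e-11) and Cd3e had 480, 463, 609.6 and 598 CPM in the GFP+ libraries, against 1444, 1100.4 and 1058 CPM in the day 0 libraries (-1.17 ± 0.12, adjusted p = 3.6e-07), both subunits of the receptor itself. Cd8b1 fell to 388, 409, 499.5 and 460.1 CPM in the GFP+ libraries, against 685, 790.4 and 711 CPM in the day 0 libraries (-0.74 ± 0.10, adjusted p = 1.4e-05), whereas Cd8a, its partner chain, rose by 0.70 ± 0.10. Zap70, a kinase that carries the signal, rose by 1.74 ± 0.19, and Cd6, a T cell coreceptor, by 1.23 ± 0.14.

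Tissue residency genes were higher for 7 of 22 and lower for 4 (median 0.39), and 3 rose without day 0 B. The 4 that fell were the gate genes Itgae and Cd69, Itgb7, the partner of CD103, and Cxcr6, a chemokine receptor of skin TRM. Itgb7 had 20.8, 22.0, 9.47 and 20.7 CPM in the GFP+ libraries, against 195, 127 and 139 CPM in the day 0 libraries (-3.10 ± 0.26, adjusted p = 3e-08), and Cxcr6 had 173, 144, 149.9 and 147 CPM in the GFP+ libraries, against 259, 265 and 308 CPM in the day 0 libraries (-0.85 ± 0.13, adjusted p = 4.2e-05). The 7 that rose include Nr4a1, the gene of the reporter. Bhlhe40 and Rgs2 rose by 1.21 ± 0.20 and 0.62 ± 0.09. Of 16 exit and recirculation genes 5 rose and 2 fell (median 0.43), Satb1 up by 1.83 ± 0.17 and S1pr4 down by 1.31. Chemokine receptors fell for 4 of 10 and rose for 2, with Cxcr3 down by 1.65. Of 8 killer lectin-like receptors 2 fell and none rose in edgeR, with 2 higher at an unadjusted p under 0.05 and 1 higher in DESeq2. The 2 were Klrk1, which fell by 1.19 and encodes NKG2D, and Klrd1, which fell by 0.92.

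Glucocorticoid-induced genes were higher for 10 of 26 and lower for 3 (median 0.45), and single genes here differed between the arms. In the code 3 arm 8 were higher and 7 lower than at day 0, and in the code 4 arm 11 were higher and 2 lower. In the day 1 GFP- cells 9 were higher and 2 lower than at day 0. The count of 10 was 6 without day 0 C or code 3 A. Tsc22d3, which encodes GILZ, had 52.1, 45.7, 151 and 151 CPM in the GFP+ libraries, against 98.4, 71.0 and 109 CPM in the day 0 libraries, below day 0 in the code 3 arm and above it in the code 4 arm (-0.11 ± 0.17, adjusted p = 0.7). Fkbp5, a co-chaperone of the glucocorticoid receptor, had 15.2, 9.19, 53.9 and 40.7 CPM in the GFP+ libraries, against 11.3, 12.3 and 14.96 CPM in the day 0 libraries. The code 3 libraries lay on either side of the day 0 range and the code 4 libraries above it (0.91 ± 0.29, adjusted p = 0.024, lost under 5 of 13 settings). Per1, a clock gene that glucocorticoids induce, differed by 0.84 ± 0.24, adjusted p = 0.012, and that call was lost under 4 of 13 settings. Of 3 tested metallothionein genes, which encode zinc-binding stress proteins, 2 rose and 1 fell. Mt1 and Mt2 rose by 1.27 ± 0.15 and 1.31 ± 0.14. In day 1 GFP- cells 2 metallothionein genes were also higher and 1 lower than at day 0, and 0 passed between GFP+ and GFP- cells.

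Genes of other cells were among the largest changes in both directions. The macrophage genes Cd14 and C1qb had 36.8, 22.6, 3.92 and 6.10 CPM in the GFP+ libraries, against 0, 0 and 0 CPM in the day 0 libraries, for Cd14, and 41.0, 46.7, 12.1 and 7.32 CPM in the GFP+ libraries, against 0.176, 0.280 and 0 CPM in the day 0 libraries, for C1qb. Cd14 had no count at day 0. With 3 counts over the 3 day 0 libraries as the floor, it was at least 129.6-fold higher. C1qb was higher by 187-fold (95% interval 63.6 to 907). Both are ratios of summed counts, in which the deeper code 3 libraries weigh more. With equal weight per arm, the log2 fold change of C1qb was 6.72 ± 1.04. Of 20 phagocyte and dendritic cell genes 8 rose and 3 fell (median 1.05), with 9 higher and 0 lower in the code 3 arm and 2 higher and 3 lower in the code 4 arm. The count of 8 was 5 under the replicate block and without day 0 A or C, and 4 without code 3 B. The macrophage gene Cd68 was among the 3 that fell. It averaged 6.80 ± 3.12 CPM in GFP+ cells and 17.2 ± 2.37 CPM in day 0 cells (SD), a log2 fold change of -1.39, and its call was lost under 5 of 13 settings. Of the other markers, 2 of 9 neutrophil genes rose and 1 fell, 3 of 7 CD4 and regulatory T cell genes rose and 1 fell, and none of 4 gamma delta T and innate lymphoid genes and of 1 B and mast cell gene passed in edgeR or DESeq2 or at an unadjusted p under 0.05. The 3 that rose in the CD4 list were Il2ra, Ctla4 and Tnfrsf4, which activated CD8 cells also express. Of 30 genes known to respond to tissue dissociation and stress 9 rose and 4 fell (median 0.27). Keratinocyte genes fell for 20 of 30 and rose for 5 (median -1.43). Krt2, a keratin of the upper epidermis, had 249, 331, 14.7 and 4.47 CPM in the GFP+ libraries, against 492, 712 and 628 CPM in the day 0 libraries (-3.51 ± 0.24, adjusted p = 6.1e-09), and the wound and inflammation keratin Krt6a had 115, 147, 80.3 and 48.0 CPM in the GFP+ libraries, against 1.76, 2.38 and 2.99 CPM in the day 0 libraries (5.28 ± 0.47, adjusted p = 2.7e-07). The part of such cells in the other changes was not tested.

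**Figure D3:**
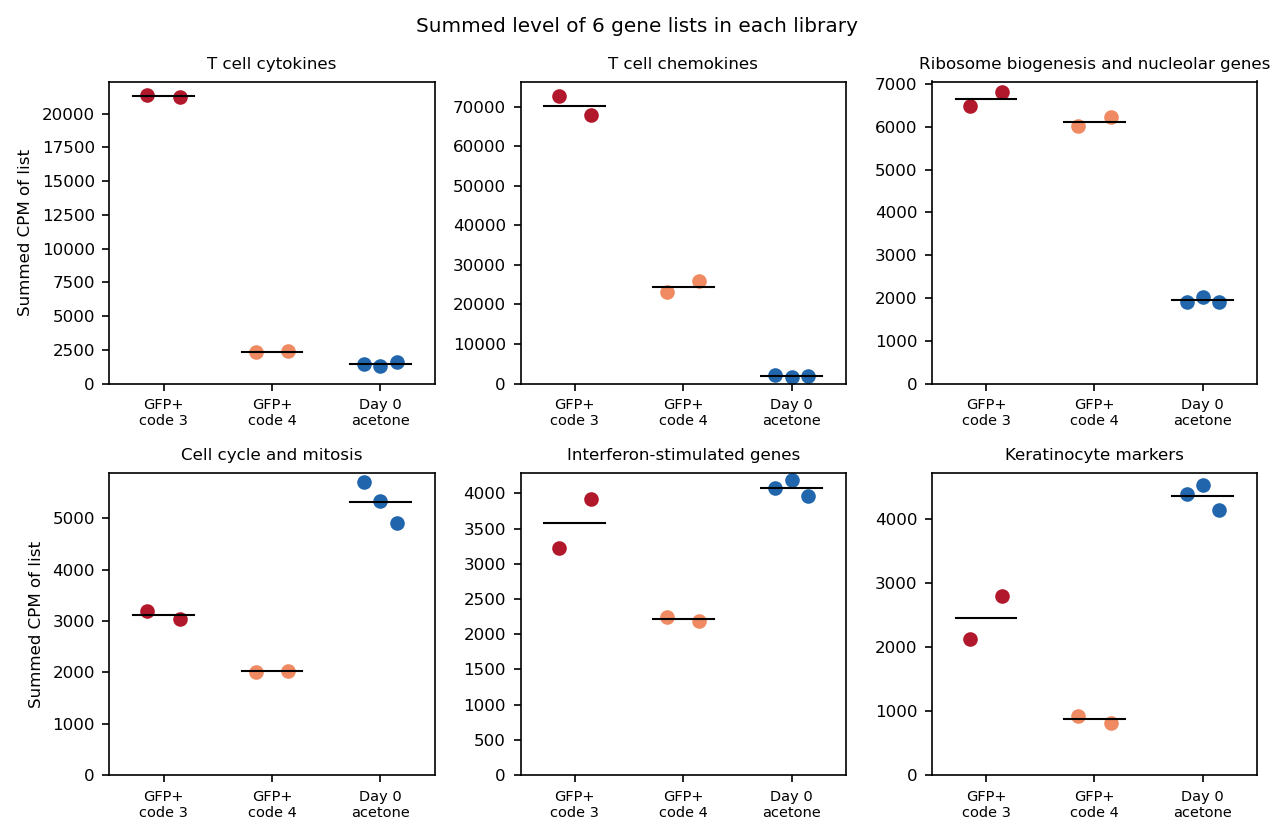
Summed CPM of the genes of 6 lists in each library of day 1 GFP+ TRM (code 3 and code 4 arm) and of day 0 acetone TRM. Points are libraries and lines are means of a set. Cytokine sums were 21390 and 21240 CPM in the code 3 arm and 2344 and 2387 CPM in the code 4 arm, against 1321 to 1559 CPM at day 0, while ribosome biogenesis sums of both arms lay between 6011 and 6817 CPM, against 1909 to 2020 CPM at day 0.

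Some large changes lay outside the lists, and 3 such genes were picked after their values were seen. Penk, which encodes proenkephalin, had 585, 593, 178 and 199 CPM in the GFP+ libraries, against 3.52, 16.3 and 19.5 CPM in the day 0 libraries (4.68 ± 0.49, adjusted p = 4.5e-06). Susd2 had 4.10, 2.87, 1.31 and 2.03 CPM in the GFP+ libraries, against 172, 179 and 123 CPM in the day 0 libraries (-6.02 ± 0.28, adjusted p = 3.4e-12). S100a4, a calcium-binding protein of memory and motile cells, had 559, 606, 402 and 405 CPM in the GFP+ libraries, against 3242, 3323 and 3328 CPM in the day 0 libraries (-2.77 ± 0.08, adjusted p = 3e-15). None of these overlapped between the groups, and for S100a4 the 3 day 0 libraries lay close together. The largest falls were in weakly expressed genes. Iqgap3, a scaffold of dividing cells, had 1 count in GFP+ libraries and 192 counts in day 0 libraries, and Fam69b had 1 count in GFP+ libraries and 158 in day 0 libraries.

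Each arm alone was also compared with the same 3 day 0 libraries, so the 2 comparisons share their controls. The code 3 arm differed from day 0 in 2200 genes (19%), 1149 higher (9.92%) and 1051 lower (9.07%), and the code 4 arm in 2186 genes (18.9%), 972 higher (8.39%) and 1214 lower (10.5%). Of the 1257 genes higher over both arms, 695 passed in each arm alone, 303 in code 3 alone, 185 in code 4 alone and 74 in neither. The difference between the arms was tested directly and passed for 367 genes (3.17%), 107 higher (0.923%) and 260 lower (2.24%) in code 4 than in code 3. Of the effector genes, 8 of 21 cytokines, 6 of 7 chemokines and 5 of 16 granule genes were lower in code 4. Il3 differed by -4.95 ± 0.24, adjusted p = 1.4e-10, Ifng by -3.23 ± 0.17, adjusted p = 2.5e-10, and Gzmb by -2.57 ± 0.14, adjusted p = 5.3e-10. Glucocorticoid-induced genes went the other way, 7 of 26 higher and 1 lower, with Cxcr4 at 2.54 ± 0.25, adjusted p = 2e-06 and Tsc22d3 at 1.63 ± 0.24, adjusted p = 0.0003. Ncl, of the ribosome biogenesis list, differed by -0.28 ± 0.17, adjusted p = 0.46, which did not pass. Keratinocyte genes also differed, 15 of 30 lower and 1 higher in code 4, as did 10 of 46 interferon-stimulated genes, 9 lower and 1 higher, and 9 of 50 cell cycle genes, all lower. The code 4 libraries were also the shallower ones, and the part of depth or keratinocyte RNA in these differences was not tested.

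**Figure D4:**
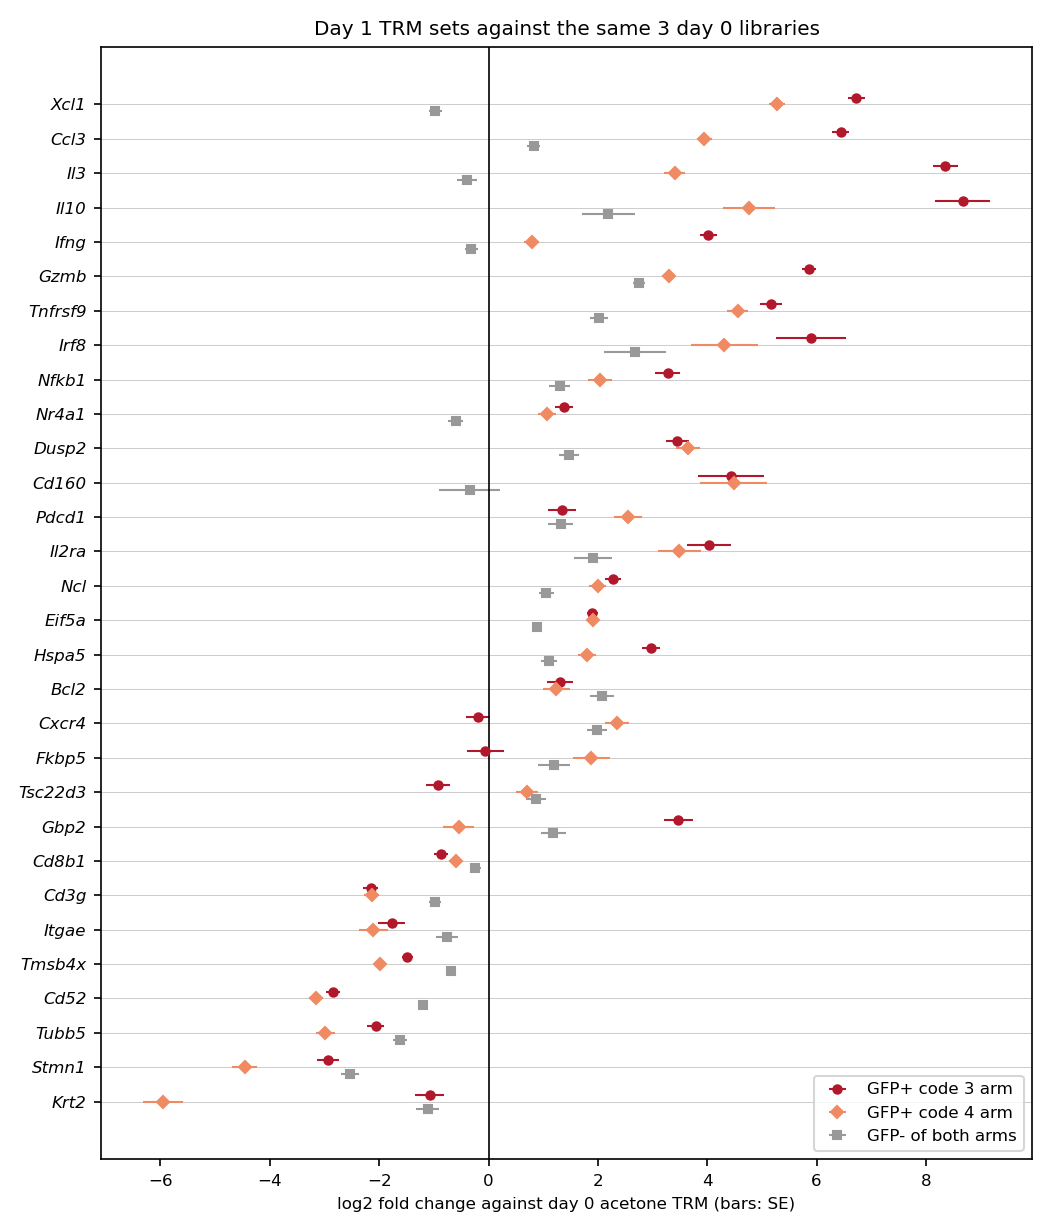
Log2 fold change against day 0 acetone TRM of 30 genes in day 1 GFP+ TRM of the code 3 arm (circles) and the code 4 arm (diamonds) and in day 1 GFP- TRM of both arms (squares). Bars are the SE of the fit, and all points share the same 3 day 0 libraries. Ifng stands at 4.02 in the code 3 arm and 0.79 in the code 4 arm, whereas Ncl stands at 2.27 and 2.00.

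The GFP state at a fixed day was addressed by setting the GFP+ cells against the GFP- cells of the same day and arms. That comparison called 1402 genes (12.1%), 648 higher (5.59%) and 754 lower (6.51%) in GFP+ cells. Of the 1257 genes higher than at day 0, 510 were also higher than in GFP- cells, 5 were lower, and 742 did not pass. Of the 1706 lower ones, 651 were also lower than in GFP- cells and 3 were higher. Both comparisons hold the same GFP+ libraries, so part of this agreement in direction is built in. The GFP- cells themselves differed from day 0 in 814 genes (7.02%), 361 higher (3.12%) and 453 lower (3.91%). For 189 of the genes that rose in GFP+ cells, the GFP- cells had also risen and no difference by GFP was found. Both rises were measured against the same day 0 libraries.

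Xcl1 and Il3 were low in the GFP- cells of day 1. The GFP- libraries had 149, 139.5, 77.1 and 71.0 CPM of Xcl1, for code 3 A and B and code 4 A and B in order, which is below day 0 (-0.97 ± 0.11, adjusted p = 1.5e-05), and the GFP+ cells exceeded them by 6.97 ± 0.13 on the log2 scale. Il3 was at 11.1, 16.5, 15.7 and 12.3 CPM in GFP- libraries, and the test against day 0 did not pass (-0.39 ± 0.18, adjusted p = 0.22). Nr4a2 and Gadd45b, a stress gene, showed the same opposite pair of changes as Xcl1. Nr4a2 rose by 1.66 ± 0.19 in GFP+ cells and fell by 0.77 in GFP- cells, and Gadd45b rose by 1.21 ± 0.15 and fell by 1.09. Of the 21 cytokine genes 11 were higher in GFP+ than in GFP- cells, and of the 7 chemokine genes 5.

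Gzmb and Tnfrsf9 had risen in the GFP- cells too. Gzmb was at 25871, 21192, 1606 and 1573 CPM in GFP- libraries (2.75 ± 0.11, adjusted p = 7.6e-12), so that the GFP- cells of code 3 lay above the GFP+ cells of code 4. Tnfrsf9 was at 723, 561, 75.1 and 104 CPM (2.02 ± 0.16, adjusted p = 1.3e-07). In both genes the GFP+ cells were higher still over both arms, by 1.83 ± 0.10 and 2.84 ± 0.15. Among growth genes, 15 of 48 ribosome biogenesis genes were higher in GFP- cells than at day 0 and 25 were higher in GFP+ than in GFP- cells. Ncl had 405, 395, 254 and 278 CPM in GFP- libraries.

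Cell cycle genes fell in both kinds of cells, 28 of 50 in GFP- cells against day 0, with a median of -1.95, and 10 were lower in GFP+ than in GFP- cells and 3 higher. Stmn1 had 145, 101, 14.4 and 14.7 CPM in GFP- libraries, lower in code 4 than in code 3 as in the GFP+ cells. Of 46 interferon-stimulated genes 2 were higher in GFP- cells than at day 0, while 18 were lower in GFP+ than in GFP- cells. Cd3g and Cd52 fell in steps, at 1743, 1569.9, 888 and 839 CPM and 1700.5, 1511, 862 and 839.8 CPM in GFP- libraries, with GFP+ cells lower than these by 1.16 and 1.80. Bcl2, a survival gene, was at 152, 159, 149 and 216 CPM in GFP- libraries, and GFP+ cells were lower than these (-0.80 ± 0.19, adjusted p = 0.0064) and higher than day 0. Keratinocyte genes were lower for 15 of 30 in GFP- cells than at day 0 as well, and differed between GFP+ and GFP- cells for 5.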

How the data were processed

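RNA of sorted TRM was made into bulk CEL-seq2 libraries. The authors deposited a table of read counts per gene. The tools BWA 0.7.15, HTSeq and bcl2fastq 2.2 and the build GRCm38 are named in the submitters' processing notes. Whether molecular identifiers were collapsed, how multi-mapped reads were handled and whether strand was used are not given in the sources used here, so members of families of similar genes (Gzmf, Serpinb6b, Ly6a, metallothioneins, Lilrb4, Hspa1a) and antisense pairs are uncertain.

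The 17 libraries of the first experiment were fitted together with 1 mean per sorted set, so that all sets share an estimate of the spread. Of 18054 rows, 11588 genes passed edgeR's filterByExpr, and 1 spike-in row of at most 16 reads was left out and the eGFP row kept. Counts were scaled by TMM and tested with edgeR 4.0.16 (quasi-likelihood, robust) in R 4.3.3, with Benjamini-Hochberg adjustment over all genes and a threshold of 0.05. Standard errors are the absolute log2 difference over the square root of the F statistic. DESeq2 1.42.0 was an alternative. The steps were tested on simulated data. Within the GFP+ sets of code 3 and code 4 and the day 0 acetone set, no 2 libraries agreed within sampling noise. Chi-square over degrees of freedom was 12.7 to 31.5. The other sets were not checked in this way.

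Genes were named by rule: Nr4a1, the gate genes, 3 glucocorticoid-induced genes, the 15 strongest called rises and 15 strongest called falls without overlap of groups and with a mean of at least 10 CPM in the higher group, and up to 4 called members of each list in each direction. Libraries enter by their labels, but which comparison, members and 39 gene lists to describe was chosen with earlier results of these data known. For a gene with no count in a group, 3 counts over the group were the floor, and intervals (95%, exact) cover counting error only. Such ratios use counts summed over the libraries of a group, scaled by library size, and do not give the arms equal weight. Gene positions are from GENCODE on GRCm38. Some members of the lists are not reported here by name.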

Additional observations from a re-analysis of the deposited data

Results flagged for a closer look

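The 140 genes named above were screened for a GFP+ library far from the other 3 and for a difference between the arms, code 4 minus code 3. The difference between arms passed the edgeR test, adjusted over all 11588 genes, for 42 of them, 10 higher and 32 lower in code 4, and each number below in brackets is that difference on the log2 scale.

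Of chemokine, cytokine and granule genes, those lower in code 4 were Il3 (-4.95), Il2 (-4.39), Il10 (-3.90), Ifng (-3.23), Gzmb (-2.57), Ccl3 (-2.49), Areg (-1.52), Xcl1 (-1.45), Ccl1 (-1.38), Nkg7 (-1.19), Ccl4 (-0.91) and Lamp1 (-0.65). Of surface, signalling and transcription genes, they were Nfkb1 (-1.23), Nr4a2 (-0.91), Satb1 (-0.91) and Thy1 (-0.75). Of cell cycle, actin and motility genes, they were Ube2c (-2.09), Ccnd2 (-1.84), Stmn1 (-1.53), Vim (-1.17), Tubb5 (-0.92), Tpm3 (-0.89), Actg1 (-0.76), S100a4 (-0.53) and Tmsb4x (-0.50). The others were the interferon-stimulated genes Gbp2 (-4.02), Ly6a (-1.36) and Psmb8 (-0.95), the keratin gene Krt2 (-4.87), the cholesterol synthesis gene Fdps (-1.78), and the stress genes Hspa5 (-1.16) and Mt2 (-0.65).

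Genes higher in code 4 were Cxcr4 (2.54), Fkbp5 (1.95), Tsc22d3 (1.63), Maff (1.55), Klrd1 (1.46), Hspb1 (1.33), Pdcd1 (1.20), Zap70 (0.89), Cd8a (0.68) and Ly6e (0.53). Gbp2 and Ccnd2 lay above day 0 in code 3 and below it in code 4, and Tsc22d3 lay below it in code 3 and above it in code 4.

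By chance, the screen flags about 1 in 20 groups of 4 drawn from 1 normal distribution. That rate need not hold for libraries of different arms. Fam69b and Iqgap3 had 1 count each over the GFP+ libraries, and any such gene is flagged. For 8 genes a GFP+ library was flagged as apart from the other 3. The value of that library was 378 CPM in code 4 B for Cd6, 262 CPM in code 4 A for Csf1, 0.132 CPM in code 3 A for Fam69b, 307 CPM in code 4 A for Got1, 0.327 CPM in code 4 A for Iqgap3, 9.47 CPM in code 4 A for Itgb7, 2633 CPM in code 3 A for Rps27a and 567 CPM in code 3 A for Serpinb6b.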

How the results depend on the processing

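The count of 2963 genes between day 1 GFP+ and day 0 TRM was 2287 to 3378 over the alternatives tried, which were another scaling, no filter on low counts, DESeq2, a replicate block, no mitochondrial transcripts, a fit of the compared libraries alone and each library left out. The median log2 fold change was -0.10 to -0.27, and the higher share of the calls 38.0% to 44.6%. The number of genes that differed between the arms was 626 without the filter and 698 with DESeq2, against 367. For GFP- against day 0 TRM it was 1252 with DESeq2, against 814. In simulated data of the main comparison edgeR (11129 genes) found 22 of 100 with a 2-fold and 69 of 100 with a 4-fold difference, and 9% of its calls were false. DESeq2 (11588 genes) found 40 and 79, with 25.2% false. Most 2-fold changes were thus missed in the simulated data. Those data held far fewer changed genes than the 2963 called here, and the adjustment depends on that share, so these rates need not hold for the real comparison.

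Among the GFP+ and day 0 libraries, same-lettered libraries of different sets deviated together with r of only -0.04 to 0.02, so no pairing by letter was seen there. GFP+ and GFP- libraries of the same letter were not compared in this way, and whether letters pair those was not tested. With the letter as a replicate block, 2287 genes were called in the main comparison and 466 for GFP- against day 0. Under the block, Tsc22d3 was 0.023 (adjusted p = 0.96) in place of -0.11, neither past the threshold.

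With each library left out in turn, the counts ranged from 2328 to 2581 for the main comparison, 1267 to 1830 for the code 3 arm, 1415 to 1845 for the code 4 arm, 179 to 251 between the arms, 1037 to 1385 between GFP+ and GFP- cells, and 511 to 739 for GFP- against day 0. The code 3 arm fell to 1267 and 1304 without its library A or B, the code 4 arm to 1415 without its library B, and the difference between arms to 179, 194 and 222 without code 3 A, code 3 B or code 4 B. GFP- against day 0 fell to 529 without day 0 C and to 511 without GFP- code 3 B. A set left with 1 library was assumed to vary like the others. Of 215 called genes chosen for naming, 187 kept the call under all 13 alternatives. Csf1 and Unc13d lost it without day 0 A, Actg1 without day 0 B, Tpm3 without day 0 C and Bad without code 4 A.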
